A study of Mus musculus with 8 samples.

Results

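Tgfbi, Crlf2, Gas2l1, Tapbp and Lphn2 are 5 of the 21490 genes that the deposited peak table assigns to at least 1 region of accessible chromatin. They were chosen by the heights measured here. Tgfbi, Crlf2, Gas2l1 and Tapbp lie at the 4 highest regions counted at 0 h only, and Lphn2 lies at the region with the 5th largest fall between 0 h and 120 h. The table lists 31 regions for the 5 genes, of 87144 in all. For each gene, the region that chose it was compared with the region at the gene's start and with its other regions.

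ATAC-seq marks open chromatin, since a transposase inserts adapters mainly where DNA is not wrapped up. It was applied to germ cells sorted from the testes of mice carrying the transgene Tg(Piwil2/EGFP)1GHan/J, in which the Piwil2 promoter drives GFP from prenatal germ cells to early spermatids. All mice were fed WIN 18,446, which blocks the synthesis of retinoic acid (RA), for 7 days from 2 days post partum, and were then either collected without an injection at 9 days (0 h, also called before RA below) or injected with RA in DMSO at 9 days and collected 18, 48 or 120 h later. The effects of RA, of the vehicle and of the added age therefore cannot be told apart. Each of the 4 timepoints had 2 libraries, and each library came from 1 mouse. The labels describe the strain as derived from C57BL/6 x 129s4/SvJae, while the study's methods give C57BL/6 x SJL. An SD below is the spread between the 2 mice of a timepoint, while the standard error of a fitted change is pooled over regions and timepoints.

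The study takes the 0 h cells as undifferentiated spermatogonia, and RA moves such cells into differentiation, in which chromatin opens and closes at promoters and at distal regulatory sites. Tgfbi encodes a secreted matrix protein that binds integrins and is induced by TGF beta. Crlf2 encodes the receptor chain for the cytokine TSLP, and signals together with the IL7 receptor chain. Gas2l1 encodes a linker of actin and microtubules that binds end-binding proteins at microtubule tips. Tapbp encodes tapasin, which holds MHC class I molecules at the peptide transporter while they are loaded. Lphn2, named Adgrl2 in GENCODE, encodes a latrophilin, an adhesion receptor of the G protein-coupled type whose ligands are teneurins and FLRT proteins.

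Peak height is the tag coverage at the summit of a peak, in libraries that the authors had reduced to the same number of tags. The lowest height in any library was 24 or 25, and a region without a peak in a library has no height there. A timepoint counted for a region only if each of its libraries showed a peak there. The number of peaks was 72215 and 69089 before RA and between 24643 and 39551 in the 6 later libraries, so fewer peaks were called genome-wide after 0 h. The 15536 regions called in all 8 libraries had a median height of 224 and 270 in the 0 h libraries and of 86 to 166 in the later ones, which is a median log2 change of -1.23 at 18 h, -1.36 at 48 h and -0.75 at 120 h. Changes of single regions are therefore given beside these medians. In bulk cells, fewer open cells and less open chromatin per cell cannot be told apart. Of the germ cell markers, all 7 had a region, and between 6 and 7 had a peak in each library. No region was listed for Hsd3b1, of Leydig cells, or Spi1, of leukocytes. Of 5 other Leydig cell genes, none had a region shared by all 8 libraries, and their summed height was 223 and 429 before RA and 0 to 285 later. For 7 macrophage and leukocyte genes it was 2793 and 3044 before RA and 818 to 2112 later, and for 7 Sertoli cell genes 3193 and 3942 before RA and 726 to 1646 later. For 4 genes of peritubular myoid cells it was 1826 and 2024, then 434 to 1291, and for 5 of endothelial cells 1254 and 1317, then 193 to 432. Of the macrophage and leukocyte sum, Cd68 alone gave 1878 and 2161 before RA, while Emr1 and Csf1r had a peak only in 0 h replicate 1, at 30 and 36, and Ptprc only at 0 h. Cd14, at 447 and 543 before RA, and Itgam, at 230 and 197, had a peak in every library, as did Cd68. After 0 h Lyz2 had a peak only in 18 h replicate 2, at 42, and in 120 h replicate 1, at 35. Except for the Leydig cell genes, each of these sums was lower in every later library than in either 0 h library. So was the germ cell sum, which went from 4345 and 5282 to between 1397 and 3227. The Leydig cell sum was 285 in 120 h replicate 1, over the 223 of 0 h replicate 1. Its gene Cyp11a1 had a peak only at 120 h, at 212 and 102. The part of these cells in the results was not tested.

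The region that chose Tgfbi (chr13:56647997-56648624, mm10) was at 441 and 355 before RA. After RA a peak was called only in 18 h replicate 2, at 68, and in 120 h replicate 1, at 45. Both later heights were far under either 0 h library. The region that chose Crlf2 (chr5:109552124-109552455) was at 351 and 763 before RA, and later at 230 in 18 h replicate 1 and 201 in 48 h replicate 2. Here the 0 h libraries differed from each other more than the lower of them differed from the later peaks. The region that chose Gas2l1 (chr11:5059731-5060297) was at 349 and 378 before RA and at 145 in 120 h replicate 1. The region that chose Tapbp (chr17:33919328-33919813) was at 331 and 444 before RA and at 126 in 18 h replicate 2. The region that chose Lphn2 (chr3:148850344-148851033) had a peak in every library. Its heights were 380 and 648 before RA, 132 and 198 by 18 h, 86 and 151 by 48 h, and 58 and 46 by 120 h, so that every later library lay below both 0 h libraries, and the 18 h and 48 h libraries overlapped.

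**Figure D1:**
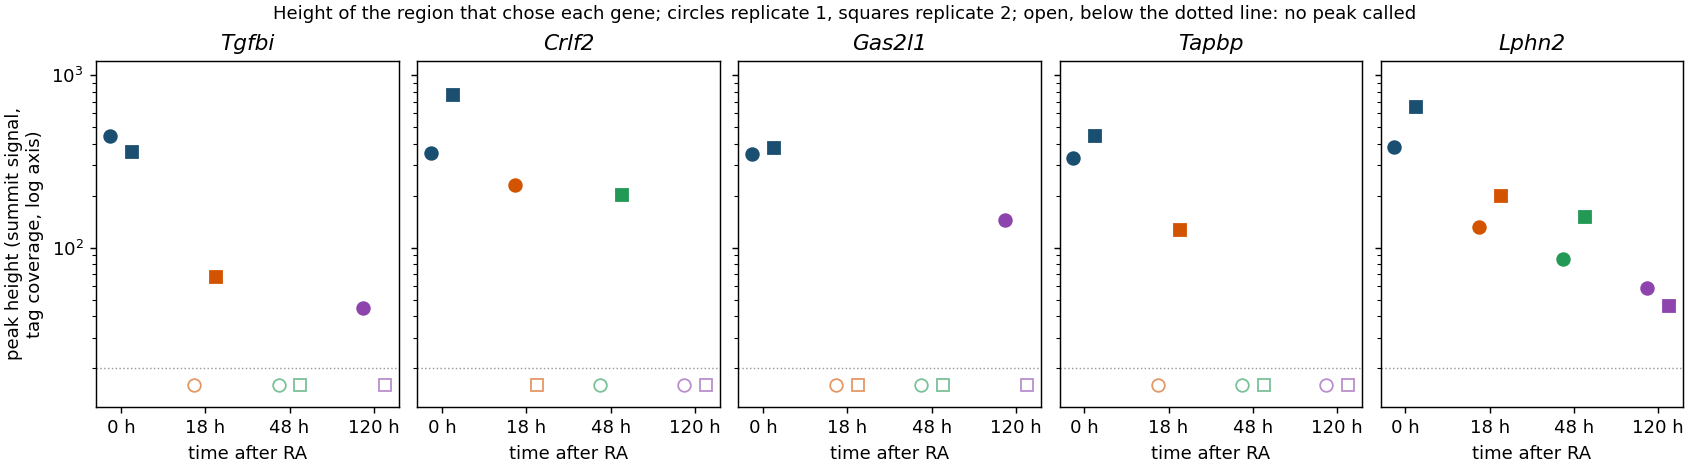
Peak height (tag coverage at the summit, log axis) of the region that chose each gene, by time after RA, with circles for replicate 1 and squares for replicate 2. Open symbols below the dotted line are libraries with no called peak, whose height is not known. The 4 regions counted at 0 h only kept a peak in 1 or 2 of the 6 later libraries, and the Lphn2 region kept one in all 6.

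These heights are what chose the genes and carry no test. None of the 5 regions lost its peak in every later library: 2 of 6 later libraries had one for Tgfbi and for Crlf2, 1 for Gas2l1 and for Tapbp, and all 6 for Lphn2. The count of 0 becomes 1 without 18 h replicate 2 (Tapbp) or without 120 h replicate 1 (Gas2l1). Regions counted at 0 h with no peak in any later library numbered 18636, and the highest of them reached 277 in the lower 0 h library. The lowest of the 4 chosen regions was at 331 in its lower library (Tapbp). The next regions in that order, assigned to Parp6 with Pkm and to Dcun1d4, were at 298 and 297. In the order of falls, the Lphn2 region stood at a log2 change of -3.2641 at 120 h, behind a region of A530010F05Rik at -3.4353 and 3 regions without a gene, and the next region, also without a gene, was at -3.2638. The step from Lphn2 to the next region is far smaller than the standard error of 0.37 of any such change.

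Of the 4030 regions that reached 331 in both 0 h libraries, the level of the Tapbp region, 3950 (98.0%) had a peak in all 8 libraries. The 4 of them counted at 0 h only are the chosen ones, a number that the rule fixed. The median of the lower 0 h height was 54 over the 30507 regions counted at 0 h only and 216 over those shared by all 8 libraries.

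**Figure D2:**
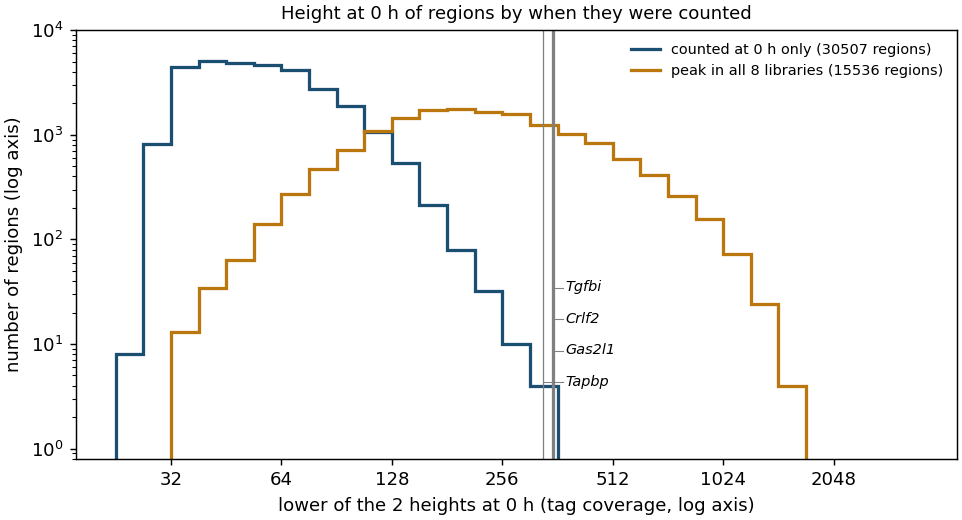
Number of regions (log axis) by the lower of the 2 heights at 0 h (log axis), for the 30507 regions counted at 0 h only and the 15536 regions called in all 8 libraries. Grey lines mark the regions that chose Tapbp (331), Gas2l1 (349), Crlf2 (351) and Tgfbi (355), which are at the upper end of the first distribution and within the body of the second.

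The sequences at the summits differed in kind between the members. They are shown because the rule that chose the genes did not use them. Each is the plus strand of GRCm38 (mm10), 100 bases on each side of the summit, at chr13:56648188-56648388 for Tgfbi, chr5:109552156-109552356 for Crlf2, chr11:5059868-5060062 for Gas2l1, where the last bases, in an untranslated exon of Rasl10a, were left out, and chr3:148850588-148850788 for Lphn2. The window of Tapbp lies in its 5' untranslated exon and is not printed. Capitals mark the matches to the motifs named below.
Tgfbi: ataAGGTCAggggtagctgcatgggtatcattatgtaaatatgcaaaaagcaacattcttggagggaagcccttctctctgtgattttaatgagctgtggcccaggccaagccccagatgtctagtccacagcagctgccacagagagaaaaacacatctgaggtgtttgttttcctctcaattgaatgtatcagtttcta
Crlf2: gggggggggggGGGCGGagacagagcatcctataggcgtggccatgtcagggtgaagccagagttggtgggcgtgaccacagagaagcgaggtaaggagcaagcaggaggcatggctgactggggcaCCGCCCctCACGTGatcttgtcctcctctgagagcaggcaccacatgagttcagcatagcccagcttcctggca
Gas2l1: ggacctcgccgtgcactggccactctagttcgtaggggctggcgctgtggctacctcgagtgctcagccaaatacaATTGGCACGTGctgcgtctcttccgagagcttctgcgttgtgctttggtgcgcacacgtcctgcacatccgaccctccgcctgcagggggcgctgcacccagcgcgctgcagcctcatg
Lphn2: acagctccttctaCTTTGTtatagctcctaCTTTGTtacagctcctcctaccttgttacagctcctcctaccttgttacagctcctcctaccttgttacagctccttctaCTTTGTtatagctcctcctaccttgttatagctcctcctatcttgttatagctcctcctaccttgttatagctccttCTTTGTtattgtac

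The Lphn2 window is a tandem repeat: shifted by 20 bases, it matched itself at 85.1% of positions, and 82.3% of its stretches of 10 bases occurred more than once. A lower share was found in 99.7% of the 87144 windows. The share was 2.60% for Crlf2 and 0 for Tgfbi, Gas2l1 and Tapbp. The 4 matches to the SOX motif ACAAAG in the Lphn2 window (CTTTGT on the strand shown) belong to copies of that repeat. GC content was 44.3% for Tgfbi and 42.8% for Lphn2, both with 0 CG pairs, and 62.7%, 63.2% and 62.2% for Crlf2, Gas2l1 and Tapbp, with 6, 16 and 11 CG pairs. Its median over all windows was 52.7%, over regions counted at 0 h only 52.2% and over regions in all 8 libraries 61.7%, so that 2 members lay below the median of either class and 3 near that of the shared regions.

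The motifs were searched on both strands. AGGTCA, the core element bound by retinoic acid receptors, was in the Tgfbi window, near its edge, and in 10.7% of all windows. Its direct repeats with 1, 2 or 5 bases between were in none of the 5 windows and in at most 0.024% of all windows. ACAAAG was in the Lphn2 window and in 19.2% of all. GGGCGG, bound by SP and KLF factors, was in the windows of Crlf2 and Tapbp, and in 19.3% of all windows but 46.5% of those in all 8 libraries. The E-box CACGTG was in the windows of Crlf2 and Gas2l1 and in 5.30% of all, and CCAAT was in the Gas2l1 window, next to the E-box, and in 25.4% of all. None of the 5 windows held the other SOX form ACAATG, found in 16.4% of all windows, the TEAD motif GGAATG, found in 9.44%, the GATA motif AGATAA, found in 6.25%, the AP-1 motif TGANTCA, found in 5.44%, or the core of the CTCF motif CCACNAGG, found in 5.32%. The ETS motif CCGGAAG, found in 4.60% of all windows, the forkhead motif GTAAACA, found in 3.74%, and the POU octamer ATGCAAAT, found in 1.06%, were not in them either. A match says only that these letters are there.

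For Tgfbi, the region that chose it lies 38685 bp from the gene's start, past the end of the gene and between genes in GENCODE. The region at the start (chr13:56609083-56609787, in a CpG island) was lower, at 131 and 157 before RA, and later at 53 in 18 h replicate 2, 59 in 48 h replicate 2 and 46 in 120 h replicate 1. At 0 h the distal region exceeded the start by 1.46 ± 0.41 on the log2 scale (SD, n = 2 libraries). Like the distal one, the start region was counted at 0 h only. Another region, 34973 bp from the start and next to the distal one, was at 178 and 163 before RA, 59 in 18 h replicate 2 and 63 in 120 h replicate 1. All 3 of these Tgfbi regions had a peak in 18 h replicate 2 and in 120 h replicate 1, and in neither 18 h replicate 1 nor 120 h replicate 2. Within the gene, 2237 bp from the start, peaks were called only in 0 h replicate 2, at 53, and in 120 h replicate 1, at 59. No Tgfbi region had a peak in all 8 libraries.

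For Crlf2, the region that chose it lies 6737 bp from the start, past the end of this short gene and in an intron of Gm8493, a gene model. It was lower at 0 h than the start region by a log2 difference of -0.53 ± 0.23 (SD, n = 2 libraries). This start region (chr5:109556637-109558848) spans 2212 bp. Its highest summit lies 2097 bp from the gene's start, in an intron, and its nearest peak at 337 bp. Its heights may therefore not be those at the start itself. The start region had a peak in all 8 libraries, at 566 and 986 before RA, 235 and 296 by 18 h, 179 and 270 by 48 h, and 567 and 506 by 120 h. All 18 h and 48 h libraries lay below both 0 h libraries, and one 120 h library was level with the lower of them. A region 5585 bp from the start was the highest of the gene, at 921 and 1309 before RA, 358 and 414 by 18 h, 269 and 328 by 48 h, and 926 and 769 by 120 h. Peaks flanked the chosen region on both sides. The one at 7857 bp was at 371 and 612 before RA, 229 in 18 h replicate 2, and 290 and 300 by 120 h. The one at 4657 bp was at 859 in 0 h replicate 2, 270 and 271 by 18 h, and 608 and 609 by 120 h, with none in 0 h replicate 1 or at 48 h. A peak of 192 was called only in 48 h replicate 2 at 6321 bp.

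No Crlf2 peak in any library was lower than 161, although the lowest heights elsewhere were 24 or 25. The mean signal of its peaks was 0.846 of the summit in the later libraries (median of 31 peaks), against 0.757 over all 328733 peaks. The same share was 0.814 for Tgfbi, 0.799 for Gas2l1, 0.755 for Lphn2 and 0.687 for Tapbp. Signal outside called peaks was not measured, so where a later library had no peak in the chosen region its signal there is not known. Whether such libraries had less open chromatin there was not tested.

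For Gas2l1, the region that chose it lies 5359 bp into the gene, in an intron. On the other strand of the DNA it is a coding exon of Rasl10a, and the table also assigns it to Ewsr1. It lies in a CpG island. At 0 h it exceeded the region at the gene's start by 0.44 on the log2 scale in both libraries (SD 0.006, n = 2). Where a start region could lie within 3000 bp, the highest region of the gene was taken for the start and the difference was -0.62. The start region (chr11:5065097-5065728) was at 257 and 280 before RA, 115 in 48 h replicate 1, and 187 and 114 by 120 h, and was counted at 0 h and 120 h. Between them, 3279 bp from the start, the highest Gas2l1 region had a peak in all 8 libraries, at 468 and 662 before RA, 212 and 311 by 18 h, 222 and 249 by 48 h, and 317 and 205 by 120 h. Both 0 h libraries lay over every later one. Past the gene's end, a region 18575 bp from the start was at 65 and 129 before RA and 61 in 18 h replicate 1. A region 12911 bp from the start was counted at 120 h only, at 84 and 64, and 1 at 13679 bp had a peak only in 120 h replicate 1, at 89.

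For Tapbp, the region that chose it is the start of the gene itself, 42 bp from the start in the table, in its 5' untranslated exon and in an exon of the gene model Gm19412. A region 938 bp from the start, in a coding exon, was at 161 and 230 before RA and had no peak in any later library. Both regions within 1000 bp of this start were thus counted at 0 h only. The regions upstream of it were shared by all 8 libraries. One, 10134 bp away and within 1000 bp of the starts of Daxx, a histone chaperone, and BC051226, was at 333 and 336 before RA, 106 and 163 by 18 h, 130 and 126 by 48 h, and 396 and 300 by 120 h. The other, 3542 bp away and within 1000 bp of the start of Zbtb22, a zinc finger gene, was at 713 and 744 before RA, 254 and 343 by 18 h, 282 and 368 by 48 h, and 685 and 464 by 120 h. At 120 h the first of these overlapped its 0 h heights and the second did not. The chosen region had no peak there, and under the rule it could not have had one in both libraries. In the full GENCODE annotation, an exon of Tapbp with untranslated and coding sequence also overlaps the summit window of the region 3542 bp away. Whether a Tapbp transcript starts there was not looked at. Downstream, the region 9994 bp from the start, near the start of Rgl2, was at 133 and 161 before RA, 62 in 18 h replicate 2, 73 in 48 h replicate 1, and 108 and 101 by 120 h. The region at 11386 bp was at 97 and 115 before RA and 77 in 120 h replicate 1.

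For Lphn2, the region that chose it lies in an intron, 103947 bp from the start the table uses. No region lies within 1000 bp of that start, and the nearest, 3595 bp into the gene, was at 60 and 103 before RA, 45 in 18 h replicate 1, 45 in 48 h replicate 2 and 53 in 120 h replicate 1. GENCODE has another start further upstream (chr3, position 148990555). The region there (chr3:148989148-148990600), which the table gives to no gene, had a peak in all 8 libraries, at 159 and 141 before RA, 63 and 99 by 18 h, 61 and 75 by 48 h, and 103 and 78 by 120 h. It was looked for after the values were seen. Its log2 change at 120 h was -0.74, near the median of all regions, against -3.26 for the intronic region. Another intronic region in a CpG island, 134859 bp from the start, was at 139 and 148 before RA, 33 and 35 by 18 h, and later only at 32 (48 h replicate 1) and 38 (120 h replicate 1). The remaining 6 Lphn2 regions were low, with 0 h heights between 31 and 68, and had no peak in any later library, and 2 of them had a peak in a single 0 h library.

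**Figure D3:**
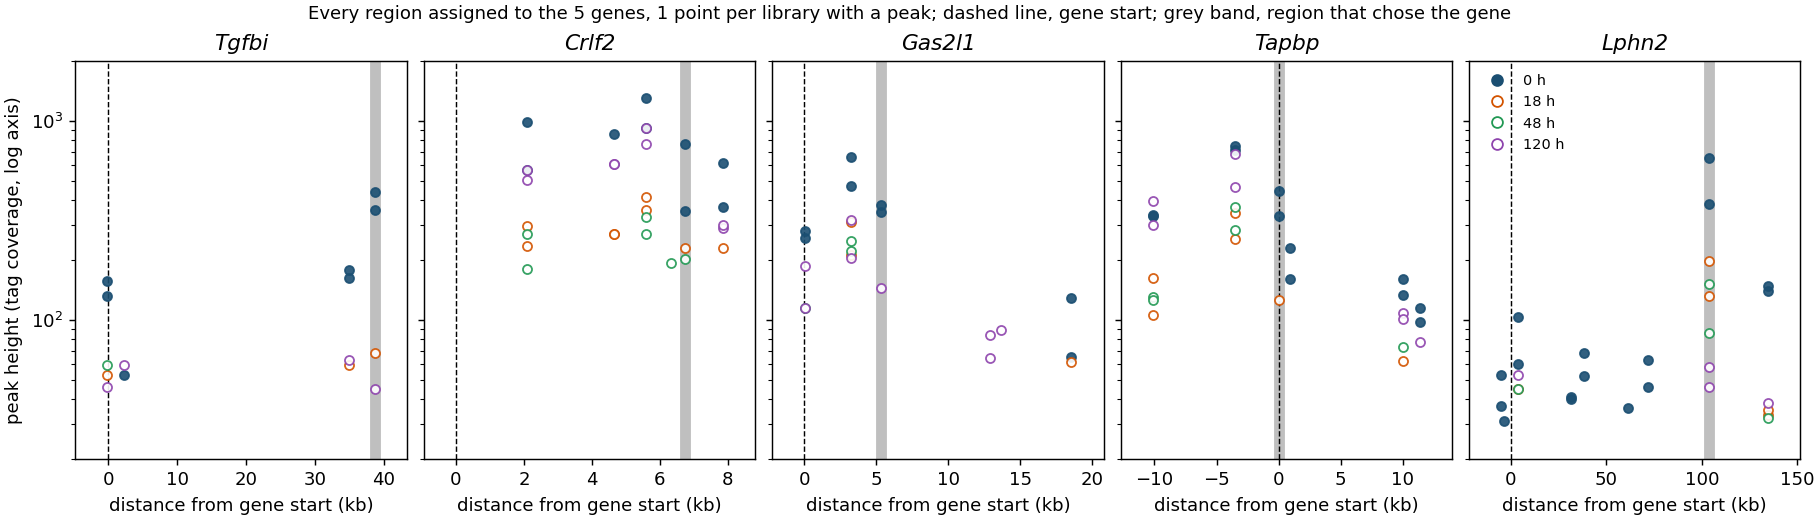
Peak height (tag coverage, log axis) of all 31 regions of the 5 genes against the distance of the region's highest summit from the gene start in kb, with 1 point for each library that has a peak, filled for 0 h. The grey band marks the region that chose the gene and the dashed line the gene start. The chosen region of Tapbp is at the start, while those of Tgfbi and Lphn2 are 38685 and 103947 bp away.

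Over the 31 regions, 25 and 27 had a peak in the 0 h libraries, 11 and 14 by 18 h, 9 and 10 by 48 h, and 20 and 11 by 120 h. The 2 libraries of 120 h therefore differed more than those of any other timepoint. Genome-wide they also had the most and the fewest peaks of the later libraries, with 39551 in replicate 1 and 24643 in replicate 2. Counted at any timepoint were 26 regions. Of these, 14 were counted at 0 h only, against 49.8% of the 61310 regions counted in all, a share from which nothing is read since the rule used it. By gene these were 3 of 3 for Tgfbi, 1 of 5 for Crlf2, 2 of 5 for Gas2l1, 3 of 6 for Tapbp and 5 of 7 for Lphn2. The 14 become 8 without 120 h replicate 2, in which case 1 peak is enough at 120 h. They become 7 when either library is enough, and 8 with the 24643 highest peaks of each library or when regions neither inside the gene nor up to 1000 bp from its start are left out. A peak in all 8 libraries was found in 6 regions, which were 2 of Crlf2, 2 of Tapbp, 1 of Gas2l1 and 1 of Lphn2.

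**Figure D4:**
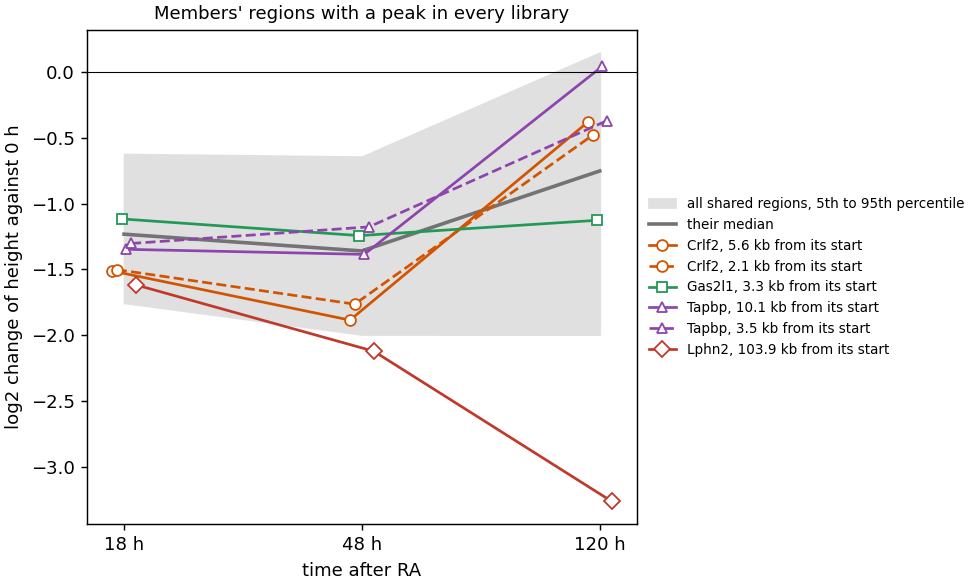
Log2 change of peak height against 0 h at 18, 48 and 120 h for the 6 regions of the 5 genes with a peak in every library, over the median and the 5th to 95th percentile of all 15536 such regions. At 18 h all 6 lie within the band. At 120 h the Crlf2 and Tapbp regions are over the median, the Gas2l1 region is under it at -1.13, and the Lphn2 region, chosen for its fall, is at -3.26.

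Against 0 h these regions carry no test, since the choice of the genes used the 0 h libraries. At 18 h their log2 changes were between -1.62 (Lphn2) and -1.12 (Gas2l1), around the median of -1.23. At 120 h the 4 shared regions of Crlf2 and Tapbp were between -0.48 and 0.04, with a median over all regions of -0.75, and the Gas2l1 region was at -1.13. These 4 regions were thus nearer to their 0 h heights than the median region was. The regions that chose Crlf2 and Tapbp had no peak in either 120 h library. The rule had excluded a peak in both, so nothing is read from this contrast.

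Changes between later timepoints did not enter the rule, and limma was used for them. The later libraries did enter the choice of the genes, through the missing peaks of the 4 regions counted at 0 h only and the 120 h heights of the Lphn2 region, so that the genes were not chosen independently of these libraries. The heights of the other 5 shared regions were not used. From 18 h to 48 h none of the 6 regions passed limma with Benjamini-Hochberg adjustment, and none had an unadjusted p under 0.05 in either direction. Genome-wide 0.00644% of regions were lower and 0% higher after adjustment. At an unadjusted p under 0.05, 255 of all 15536 regions were lower and 14 higher. The largest difference was that of the Lphn2 region, at a log2 change of -0.50 (SE 0.37, limma adjusted p = 1), with medians of all regions at -0.13. From 48 h to 120 h, 3 of the 5 regions other than that of Lphn2 rose and none fell, against 23.7% higher and 0.18% lower of all 15536 regions. At an unadjusted p under 0.05, 4 of them were higher and 0 lower, against 5958 higher and 91 lower of all 15536 regions. The median of all regions rose by 0.56. The Crlf2 region at 5585 bp rose by 1.51 (SE 0.37, limma adjusted p = 0.00408), the Crlf2 start region by 1.28 (adjusted p = 0.0112) and the Tapbp region near Daxx by 1.43 (adjusted p = 0.00593). The Tapbp region near Zbtb22 was at 0.81 (limma adjusted p = 0.0902) and that of Gas2l1 at 0.12 (adjusted p = 0.849), which is under the median region. Over all alternatives the limma adjusted p of the 3 calls ran from 0.000714 to 0.271 for the first Crlf2 region, from 0.00245 to 0.581 for the Crlf2 start and from 0.00076 to 0.178 for the Tapbp region.

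The 3 rises depended on single libraries. Without 48 h replicate 1 none of the 3 passed (limma adjusted p = 0.197, 0.253 and 0.176 in the order above). Without 48 h replicate 2 the Crlf2 start (0.0531) and the Tapbp region (0.0687) did not pass, and without 120 h replicate 1 the Crlf2 start (0.0523) did not. Without 120 h replicate 2 the Tapbp region near Zbtb22 passed as well (0.0142). After centring each library on its median the 3 rises were 1.00, 0.78 and 0.93 with limma adjusted p of 0.0168, 0.044 and 0.0217, and after quantile normalization they were 0.44, 0.27 and 0.58 and did not pass. The Gas2l1 value changed sign to -0.39 under centring.

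The regions of other genes most like the chosen ones were named by height alone. Over the 2 libraries of 0 h, the region counted at 0 h only that was nearest to that of Tgfbi belonged to Parp6 and Pkm (root mean square log2 difference 0.22), the nearest to that of Tapbp to Dcun1d4 (0.15), and the nearest to both Gas2l1 (0.17) and Crlf2 (0.56) was the Tapbp region itself. Over 8 libraries the region most like that of Lphn2 was one of Bicc1 (0.28), at 358 and 416 before RA and 72 and 38 by 120 h, followed by Slc4a7 (0.28) and 3110052M02Rik (0.30). None of these 3 windows repeated any stretch of 10 bases, unlike that of Lphn2.

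Partners and family members of the 5 proteins were followed in 76 regions called in all 8 libraries that are not regions of the 5 genes. Some of these lie at the start of another gene. The Il2rg regions lie near the starts of Foxo4 and Med12, the Tapbpl region at that of Vamp1, and an Itgav region at that of Fam171b. At 120 h against 0 h, 43 of the 76 regions were lower and 0 higher by limma with Benjamini-Hochberg adjustment, against 44.8% lower and 0.882% higher of all regions. At an unadjusted p under 0.05 these were 50 and 1, against 7997 lower and 174 higher of all 15536 regions. The median of the 76 regions was -0.94, against -0.75 over all. Median centring of the libraries gave 22 lower and 10 higher in place of these counts. Over all 15536 regions it gave 2449 lower and 3568 higher. Without 0 h replicate 2, and likewise without 120 h replicate 2, 26 were lower.

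Of the peptide loading and MHC class I genes around Tapbp, 5 of 13 regions were lower, with a median of -0.72. The largest fall was at the start of Erap1, the peptidase that trims MHC peptides, from 314 and 322 before RA to 86 and 55 by 120 h (log2 change -2.21, SE 0.37, limma adjusted p = 1.02e-07). Median centring left it at -1.32 (limma adjusted p = 0.00075). Canx and Calr encode chaperones of the same assembly line that every cell uses. Neither passed in its least changed region, which was at -0.17 at the start of Canx and at -0.03 for Calr, where that region lies at the start of Farsa. After median centring both of these regions passed as higher, as did 3568 of all 15536 regions. The Canx start was then at 0.73 (limma adjusted p = 0.0113) and the Calr region at the start of Farsa at 0.86 (adjusted p = 0.00753). The region at the start of Calr itself was at -0.45 and did not pass. Nor did it after centring, at 0.44 (limma adjusted p = 0.0951). With centring, 4 of the 13 regions were lower and 2 higher. All 13 genes had at least 1 peak in every library.

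Of the TSLP receptor signalling genes around Crlf2, 3 of 10 regions were lower (median -0.76), and with median centring 1 was lower and 3 higher. Tslp, the ligand, and Il7r, the second receptor chain, had no region with a peak in all 8 libraries. The highest value was 0.76 in a region of Jak1 away from its start (limma adjusted p = 0.0821), which passed after median centring at 1.65 (adjusted p = 0.00211).

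Of the TGF beta, integrin and matrix genes around Tgfbi, 10 of 19 regions were lower (median -0.95). Median centring gave 5 lower and 1 higher. The largest fall was in Itgb3, an integrin chain, from 301 and 204 to 70 and 41 (log2 change -2.21, limma adjusted p = 1.01e-07). Median centring left it at -1.32 (limma adjusted p = 0.00495). Postn, which encodes periostin, a relative of the Tgfbi protein, had 1 region, which fell from 215 and 203 to 99 and 78 (log2 change -1.25, limma adjusted p = 0.00302) but did not pass after median centring, at -0.36 (adjusted p = 0.189).

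Of the regions of latrophilins and their ligands, 12 of 14 were lower (median -1.39). Tenm3 alone gave 6 of the 14. Median centring gave 6 lower and 1 higher. The largest fall was in the teneurin gene Tenm3, from 270 and 274 to 75 and 65 (log2 change -1.96, limma adjusted p = 2.3e-06), and the region at the start of Flrt3, another ligand, was at -1.91. Median centring left that Tenm3 region at -1.07 (limma adjusted p = 0.0044). The start of Lphn1, another latrophilin, was at 272 and 301 before RA and 444 and 405 by 120 h, without overlap, at 0.57 (limma adjusted p = 0.203), and passed as higher after median centring, at 1.46 (adjusted p = 0.000614). Flrt1 had no region. Of the GAS2 family and microtubule tip genes, 13 of 20 regions were lower (median -0.99), and with median centring 6 were lower and 3 higher. The largest fall was in Dst, a large linker with a GAS2 domain, from 351 and 376 to 51 and 39 (log2 change -3.03, limma adjusted p = 3.36e-13), and the start of Gas2l3 was at -2.47. Median centring left that Dst region at -2.14 (limma adjusted p = 5.52e-05). Gas2l2 had 6 regions, 4 of them counted at 0 h only and none shared by all libraries.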

How the data were processed

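ATAC-seq libraries of sorted PIWIL2-eGFP germ cells from 4 timepoints were used, 2 libraries at each. Reads were mapped by the authors with BWA to mm10, without duplicates, and tags were extended in silico. Peaks were called with MACS2 (2.1.0 in the submitters' processing notes) in each library without a control. The deposited table holds 328733 peaks, each with its signal (tag coverage in 32-base bins after reduction to equal tag numbers) at the summit and its mean over the peak. The depth behind a single height, and with it its counting error, is unknown.

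Peaks overlapping by 1 bp or more were merged into regions, and a region took the highest summit of each library. The genes, distances and starts are those of the deposited table. Annotation came from GENCODE vM21 and sequence from GRCm38. Log2 heights of the 15536 regions called in all 8 libraries were fitted with limma 3.58.1 in R 4.3.3 (4 groups, Benjamini-Hochberg adjustment over all regions, threshold 0.05). The fit gave every region the same standard error. Tables were made in Python 3.11.15 with pandas 2.3.3. Merging, the fit and the motif search were tested on simulated data.

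The members, gene lists and tests were chosen with earlier results of these data known. Named by rule were the 5 genes, the regions next to them in each order, the 3 most alike regions, and the region with the largest fall and rise past the threshold in each partner list. One further result that the rule would name, in a partner list, is not reported here. Other partner genes were named after their values were seen. Alternatives were a 50% overlap, heights of at least 50, equal numbers of peaks, a peak in either library, median centring, quantile normalization, the mean signal, a replicate block, only the libraries compared, an intensity trend, a mean height of at least 100, a start within 3000 bp, and each library left out in turn. Starts of GENCODE were added after the data were seen. Browser tracks and the authors' comparison columns were not used.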

Additional observations from a re-analysis of the deposited data

How the results depend on the processing

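The number of the members' regions counted at 0 h only was 14, and 8 with equal numbers of the highest peaks, 7 with a peak in either library and 8 inside the gene or within 1000 bp of its start. Leaving out 1 library gave 8 to 16. The number of chosen regions with no later peak was 0 to 1 when 1 library was left out, and regions in all remaining libraries were 6 to 7. From 48 h to 120 h, 3 members' regions rose, 0 after quantile normalization and 0 to 4 with 1 library left out. The 43 partner regions lower at 120 h against 0 h became 22 with median centring, 14 with quantile normalization and 26 to 55 with 1 library left out, and the 0 higher became 10, 6 and 0 to 2. In that comparison, median centring gave 2449 lower and 3568 higher over all 15536 regions. The height of the chosen region over the start at 0 h was -0.53 for Crlf2 and -0.22 by mean signal. For Gas2l1 it was 0.44, 0.48 by mean signal, and -0.62 when a start region could lie within 3000 bp, where the region at 3279 bp is taken.

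From 18 h to 48 h no call was made under any alternative run, and 10 of 90 single values changed sign. With 1 library left out, the log2 change ran from -0.56 to 0.034 for the Crlf2 start, from -0.40 to 0.15 for Gas2l1, from -0.35 to 0.27 for the Tapbp region near Daxx and from -0.0905 to 0.34 for that near Zbtb22. Gas2l1 was at 0.0064 with median centring, 0.056 with quantile normalization and 0.12 by mean signal, and the Tapbp region near Daxx at 0.095 and 0.12 with the first and second of these. From 48 h to 120 h the Gas2l1 value of 0.12 became -0.39 with median centring, -0.73 with quantile normalization and -0.20 to 0.43 with 1 library left out, and the Tapbp region near Zbtb22 was at -0.25 with quantile normalization. The causes were not tested. With a replicate block, 3 members' regions rose from 48 h to 120 h and 42 partner regions were lower. Deviations of same-numbered libraries correlated at -0.22 to 0.25 between timepoints, which cannot show whether these libraries shared a batch. Each library came from 1 mouse, so the numbers do not pair the mice.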

Other observations

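Tandem repeats like that of the Lphn2 region were looked for after its sequence was seen. Windows in which over 10% of the stretches of 10 bases occurred more than once made up 37 of the 100 regions with the largest falls at 120 h against 0 h, 12 of the 100 at the other end and 846 (5.45%) of the 15536 regions called in all 8 libraries. Among the 8 regions with the largest falls these were 5, of which the Lphn2 region had the highest share, at 82.3%, and that of A530010F05Rik was at 75.5%. None of the 4 regions counted at 0 h only that chose a gene passed that limit. Whether the repeats affect how the short reads were placed was not tested.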
